A study of Rattus norvegicus with 24 samples.

Results

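The effect of formaldehyde inhalation on the nose was set against its effect on blood cells after 28 days, gene by gene, on the 12 arrays of 28 days out of 24 arrays in the series. Male Fischer rats, about 8 weeks old at the start, breathed 2 ppm formaldehyde through nose-only tubes for 6 hours per day on 28 days (exposed), and control rats sat in the same kind of tube with room air. Nose and blood were each measured on 3 exposed and 3 control arrays. Nasal epithelial tissue came from the maxilloturbinate, a scroll of bone and mucosa in the nasal cavity, and white blood cells came from heparinised whole blood passed through cell preparation tubes (CPT). The labels do not say whether the 3 arrays of a group came from separate rats, so every p-value below measures the spread between these arrays, which may be technical. The quantity of interest is the interaction, the exposed minus control difference in nose minus the exposed minus control difference in blood, in log2 units of the deposited intensity, where a difference of 1 is a 2-fold difference. A negative interaction means that exposure was followed by a lower value in nose than in blood, relative to each tissue's own controls.

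Inhaled formaldehyde is water soluble and very reactive, so most of it is taken up by the mucosa that it meets first. The nasal mucosa holds surface and secretory epithelium, glands, vessels, bone, resident leukocytes and, farther back, olfactory neurons. Circulating white cells are not in contact with the inhaled air, and their mixture of lymphocytes, monocytes, granulocytes and platelets can shift with stress hormones, with inflammation and with how the blood was drawn. CPT tubes hold a gel over which mononuclear cells and platelets collect while most granulocytes and red cells sink.

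Of 29214 probe sets, 20050 were at or above the 25th percentile of mean intensity in both tissues and entered one limma fit, with p-values adjusted over all of them. The limit was 6.30 log2 in nose and 5.72 log2 in blood. Tissue markers separated the materials: the epithelial adhesion gene Epcam averaged 10.3 log2 in exposed and 9.99 in control nose, and it was under the limit in blood at 3.77 and 3.82. The pan-leukocyte gene Ptprc averaged 7.66 log2 in exposed and 8.05 in control nose, against 12.1 in exposed and 12.2 in control blood. The white cell RNA also carried platelet and red cell transcripts, with Pf4 (platelet factor 4) at 12.5 log2 in exposed and 12.2 in control blood and Hbb (beta globin) at 13.4 and 13.5. In nose Omp, the defining marker of olfactory neurons, averaged 11.6 log2 in exposed and 10.2 in control nose.

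Some arrays stood apart from their group. Over 11 olfactory neuron genes the mean was 10.04, 10.33 and 9.94 log2 on the exposed nose arrays, against 7.83, 9.94 and 9.72 on the control nose arrays, so control nose array 1 was the low one. The same array was high for 14 basal and squamous epithelial genes, at 9.48 log2, against 8.18 and 8.39 on the other control arrays and 8.17, 7.99 and 8.17 on the exposed arrays. In blood, control array 2 was high for 13 neutrophil genes at 9.05 log2, while the other controls read 7.55 and 7.39 and the exposed arrays 7.29, 7.03 and 6.73. Control nose arrays 1 and 3 lay farthest from their group mean: the SD over probe sets of the deviations was 0.183 to 0.285 log2 on the control nose arrays, against 0.111 to 0.115 for exposed nose, 0.132 to 0.197 for exposed blood and 0.148 to 0.191 for control blood.

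The interaction passed an adjusted p of 0.05 for 42 probe sets, 0.209% of those tested, and 40 of the 42 (0.2% of those tested) were negative and 2 (0.00998%) positive. For most of them exposed values were higher in blood and lower in nose: the median over the 40 was -0.43 log2 in nose and 0.86 log2 in blood, for a median interaction of -1.24. The nose difference was below 0 in 40 of these 40, beside 47.8% of all probe sets, and the blood difference was above 0 in 39, beside 43.6%. A called negative interaction favours both signs, so these counts only describe the calls. Exposed values stood clear of control values in both tissues for 36 of the 42, beside 3.24% of all probe sets, a property that a called interaction favours. An unadjusted p under 0.05 was reached by 2615 probe sets, 13% of those tested, and these were split nearly evenly, with 1357 (6.77%) above 0 and 1258 (6.27%) below 0. For 3 of the 42 (Serpinb2, Rgs18 and Plek) the exposed nose arrays were all under the nose limit, so these entered the fit through their control nose values and their nose difference is given as a bound. In bulk samples such as these, fewer cells of a type and less RNA per cell cannot be told apart.

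How many probe sets passed depended on the block and on single arrays. Exposed and control nose arrays of the same number deviated together. With a replicate block of tissue and array number, 0 probe sets passed an adjusted p of 0.05. The same held with a block of exposure and array number, which joins nose and blood arrays. The labels do not say whether such arrays came from the same rat. All 42 kept an unadjusted p under 0.05 with both blocks. Without exposed nose array 1 or without control blood array 3, 1 passed, and without exposed nose array 3, 2 passed. Without exposed nose array 2, control blood array 1 or control blood array 2, between 9 and 10 did, and without control nose array 3, 21. Without control nose array 1, the array low for olfactory genes, 192 passed, including all 40 of the negative ones, and without control nose array 2, 130 did. Without exposed blood array 2, which gave the highest of the 3 exposed blood values for 37 of the 40, 33 passed, of which 28 were among the 40 and the median blood difference of the 40 was 0.72 log2. With any 1 of the 12 arrays left out, all 42 kept their sign and an unadjusted p under 0.05.

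The same fit gave unequal counts for the tissues. In blood 265 probe sets passed an adjusted p of 0.05, 1.32% of those tested, 216 (1.08%) higher and 49 (0.244%) lower in exposed rats. In nose 1 passed, 0.00499% of those tested, and it was lower. At an unadjusted p under 0.05 the counts were close to each other, with 2160 in nose (10.8%) and 2276 in blood (11.4%). In nose 5.32% of all probe sets were past it above 0 and 5.46% below 0, and in blood 5.94% above 0 and 5.41% below 0. Which tissue had more calls depended on the setting: quantile normalization over the 12 arrays gave 25 in nose and 18 in blood, and array quality weights gave 3876 and 524. With the array number as a block 0 passed in nose and 15 in blood, and a fit of each tissue alone gave 0 and 1. The blood count was 1 without control blood array 3, 12 without exposed blood array 2 and 18 without control blood array 2.

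The probe sets were then sorted by direction, with an unadjusted p under 0.05 in a tissue counting as movement there. With a called interaction, 32 probe sets moved in opposite directions, 9 moved in blood only and 1 in nose only. Of the 32, 31 were lower in exposed nose and higher in exposed blood, and 1, an unnamed probe set, was the reverse. Another 73 moved the same way in both tissues, 53 lower and 20 higher, and none of these had a called interaction. Without regard to the interaction, 272 probe sets reached an unadjusted p under 0.05 in both tissues, and 199 of them had opposite signs. Of the 199, 119 were lower in nose and higher in blood, and 80 were the reverse. Among probe sets in none of the classes above, 4546 and 6317 had these opposite patterns. There, 4134 were above 0 in both tissues and 4938 below 0 in both. The 272 shared probe sets were 12.6% of those past the threshold in nose, beside 11.4% of all probe sets reaching it in blood. Over all 20050 probe sets the nose and blood differences had a Pearson r of -0.08 and a Spearman rho of -0.11, a description across genes that share arrays and are not independent.

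**Figure D1:**
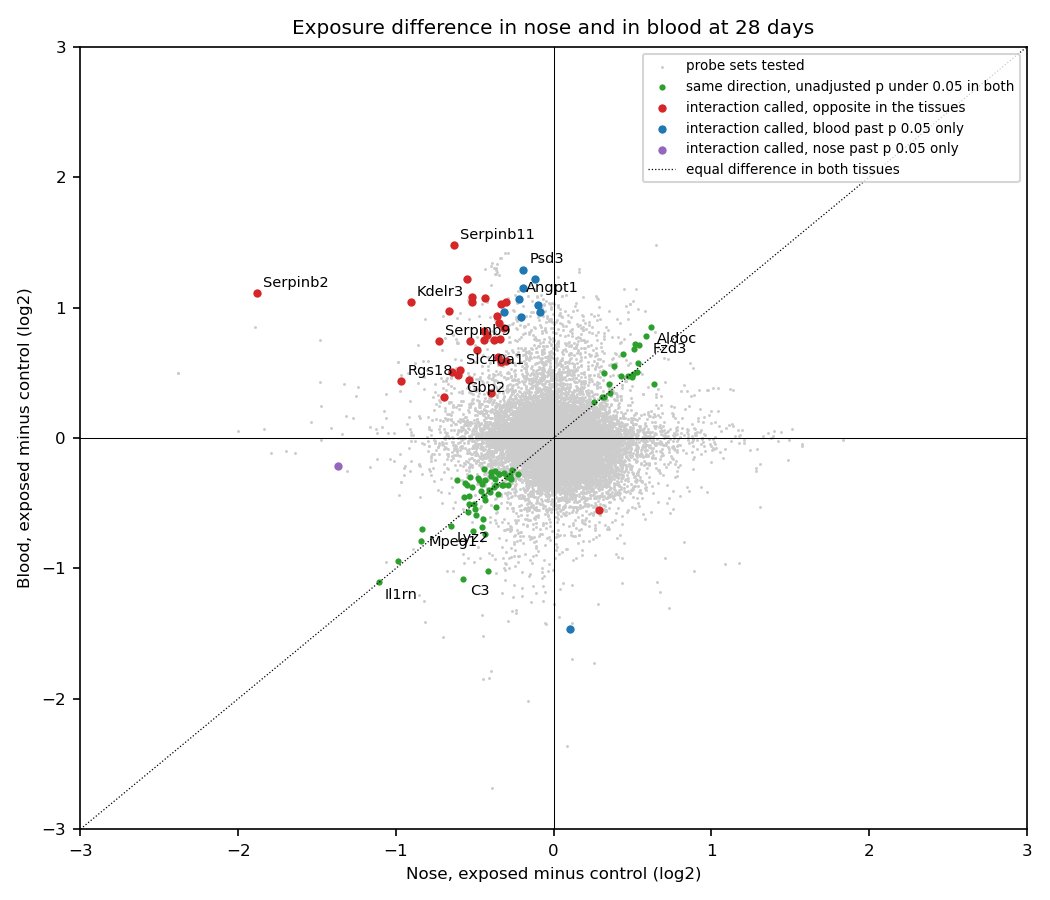
Exposed minus control difference in nose (horizontal, log2) against that in blood (vertical, log2) at 28 days, 1 point per probe set tested. Red, blue and purple points are the 42 with a called interaction and green points the 73 that moved the same way in both tissues; the called points sit mostly at upper left, lower in nose and higher in blood.

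Serine protease inhibitors of the serpin family led the opposite group. Serpinb9 restrains granzyme B and protects cells from cytotoxic lymphocytes. It had 7.98, 7.97 and 8.06 log2 in exposed nose against 8.54, 8.69 and 8.96 in control nose. In blood it had 10.35, 10.36 and 10.60 log2 in exposed rats against 9.64, 9.71 and 9.73 in controls. The groups did not overlap in either tissue, and the interaction was -1.47 ± 0.17 (SE, adjusted p = 0.0105).

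Serpinb2, the plasminogen activator inhibitor of monocytes and stressed epithelium, had the most negative fitted interaction of the 42, -3.0 ± 0.53 (adjusted p = 0.0452), but its exposed nose values were dim. Its nose values were 5.33, 5.15 and 5.69 log2 in exposed rats, all under the nose limit, against 8.45, 6.47 and 6.89 in controls. Its blood values were 7.34, 7.86 and 7.38 log2 in exposed rats against 6.50, 6.31 and 6.42 in controls. The groups did not overlap in either tissue, and control nose array 1 was again the extreme one. With the dim arrays set at the limit, Serpinb2 was at least 1.96-fold lower in exposed nose and its interaction was -2.08. Leaving out single arrays gave interactions between -3.40 and -2.41, and 2 of those 12 fits kept the adjusted p under 0.05.

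Serpinb11 had 10.19, 10.20 and 9.99 log2 in exposed nose against 10.44, 10.74 and 11.10 in control nose. Blood had 10.55, 11.17 and 10.48 log2 in exposed rats against 9.39, 9.18 and 9.17 in controls. Its interaction was -2.11 ± 0.27 (adjusted p = 0.0142), with all groups above the limits, and the blood rise of 1.48 log2 passed the test of that tissue (adjusted p = 0.0106). Serpini1, or neuroserpin, an inhibitor of tissue plasminogen activator, had 8.04, 7.93 and 8.05 log2 in exposed nose against 8.52, 8.43 and 8.72 in control nose. Its blood values were 8.88, 9.70 and 8.89 log2 in exposed rats against 8.05, 7.76 and 8.02 in controls, for an interaction of -1.77 ± 0.27 (adjusted p = 0.023). The groups of both genes were apart in both tissues. Of 18 serpin genes tested, 4 had a called interaction, beside 0.209% of all probe sets, and 15 lay below 0, beside 44.4%, with a median of -0.30, beside 0.03 over all. That grouping by name was made after the values were seen.

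The promoters of 3 genes with a called interaction are shown because each holds a paired GAAA motif (GAAA, any 2 bases, then GAAA), searched on both strands, which is the core of interferon response elements. The windows run from 250 bases before to 50 after the annotated start, from RefSeq on build GRCr8, read 5′ to 3′ on the gene's strand. Capitals mark the match, which starts 31 bases before the start in Gbp2 (minus strand of the window), 221 bases before it in Serpinb2 and 69 bases before it in Serpinb9 (minus strand of the window). Gbp2 lies at chr2:234005477-234005776 on the plus strand, Serpinb2 at chr13:24055771-24056070 on the plus strand and Serpinb9 at chr17:31640767-31641066 on the minus strand.
Gbp2: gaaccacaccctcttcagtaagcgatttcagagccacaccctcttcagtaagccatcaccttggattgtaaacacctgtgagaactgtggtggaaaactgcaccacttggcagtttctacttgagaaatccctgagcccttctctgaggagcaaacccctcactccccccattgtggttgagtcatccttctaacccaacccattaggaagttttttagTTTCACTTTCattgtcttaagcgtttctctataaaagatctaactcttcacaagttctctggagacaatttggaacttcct
Serpinb2: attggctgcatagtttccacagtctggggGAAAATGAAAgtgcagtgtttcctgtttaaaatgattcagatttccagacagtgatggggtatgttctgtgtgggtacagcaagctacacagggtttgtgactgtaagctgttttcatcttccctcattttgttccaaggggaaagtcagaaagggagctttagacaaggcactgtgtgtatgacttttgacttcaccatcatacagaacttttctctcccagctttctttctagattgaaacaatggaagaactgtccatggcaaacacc
Serpinb9: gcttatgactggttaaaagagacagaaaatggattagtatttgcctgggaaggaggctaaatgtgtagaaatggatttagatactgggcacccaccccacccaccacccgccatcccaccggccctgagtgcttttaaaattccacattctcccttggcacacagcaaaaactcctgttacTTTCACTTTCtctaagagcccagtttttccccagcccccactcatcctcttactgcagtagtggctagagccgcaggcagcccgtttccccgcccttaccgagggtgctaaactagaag
Of the 33 called probe sets with 1 gene symbol, 29 matched a promoter, and 3 of these (10.3%) held the motif, beside 3.77% of all 27457 promoters. The ETS core AGGAAG was in 17 of the 29 (58.6%), beside 34.3% of all, and the GATA motif AGATAA was in 5 (17.2%), beside 11.3%. Of the other motifs searched on both strands, the second GATA form TGATAA was in 1 of the 29 (8.89% of all), the longer ETS core CCGGAAG in 2 (9.22%) and the hypoxia core ACGTG in 5 (19.7%). The AP-1 site TGACTCA was in 1 (4.53% of all), the KLF core CACCC in 19 (55.1%), the PU box part TTCCTC in 11 (27.5%) and the RUNX site TGTGGT in 6 (16.9%). The NF-kB site was in 0 (0.371% of all). The motifs were reported after their shares had been looked at, several can overlap, and a match describes these letters only.

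Gbp2, a guanylate-binding GTPase induced by interferon gamma, was the 1 member of the fixed gene lists with a called interaction. It had 7.51, 7.62 and 7.58 log2 in exposed nose against 8.29, 8.04 and 8.21 in control nose. Blood had 10.23, 10.56 and 10.30 log2 in exposed rats against 9.72, 10.09 and 9.82 in controls, for an interaction of -1.09 ± 0.18 (adjusted p = 0.0317). The groups were apart in both tissues. Among the other interferon-gamma genes the chemokine Cxcl10 gave -0.62 log2 in nose and 0.76 in blood, and its interaction of -1.38 missed the threshold (adjusted p = 0.0696). Over the 15 genes of that list the median was -0.37 log2 in nose and -0.03 in blood, 11 of 15 interactions were below 0, beside 44.4% of all probe sets, and 1 passed the test below 0, beside 0.2%.

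Several opposite genes are known from platelets and other blood cells. Rgs18, a regulator of G-protein signalling that restrains platelet activation, had 5.86, 6.12 and 5.53 log2 in exposed nose, under the nose limit, against 6.68, 6.68 and 7.06 in control nose. Its blood values were 12.25, 12.47 and 12.31 log2 in exposed rats against 12.07, 11.74 and 11.92 in controls (interaction -1.40 ± 0.23, adjusted p = 0.0307). With the dim arrays set at the limit it was at least 1.41-fold lower in exposed nose and the interaction was -0.93. Plek, pleckstrin, the main protein kinase C substrate of platelets, had 6.11, 6.14 and 6.27 log2 in exposed nose, also under the limit, against 6.69, 6.41 and 6.46 in control nose. Its blood values were 11.53, 11.86 and 11.66 log2 in exposed rats against 10.99, 10.85 and 10.92 in controls (interaction -1.10 ± 0.16, adjusted p = 0.0225). Set at the limit, it was at least 1.16-fold lower in exposed nose and the interaction was -0.97. Both genes had groups that did not overlap in either tissue. The adaptor gene Skap2 gave -0.33 log2 in nose and 0.58 in blood, with an interaction of -0.92 (adjusted p = 0.0307). These names, like the others in the next paragraphs that were not among the 10 most negative, were chosen after their values were seen.

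Slc40a1, ferroportin, the cell's iron exporter, had a small error in both tissues. It had 7.31, 7.33 and 7.22 log2 in exposed nose against 7.92, 7.96 and 7.75 in control nose. In blood it had 12.55, 12.67 and 12.59 log2 in exposed rats against 12.15, 12.06 and 12.04 in controls, for an interaction of -1.11 ± 0.14 (adjusted p = 0.0142). Its groups were apart in both tissues, and the blood rise of 0.52 log2 passed the blood contrast of the same 12-array fit (adjusted p = 0.0283).

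Other opposite genes act in the secretory path, in lysosomes or outside the cell. Kdelr3, a receptor that returns escaped endoplasmic reticulum proteins, had 7.77, 7.78 and 7.74 log2 in exposed nose against 8.43, 8.64 and 8.93 in control nose. Its blood values were 7.28, 8.17 and 7.15 log2 in exposed rats against 6.68, 6.24 and 6.55 in controls, for an interaction of -1.95 ± 0.32 (adjusted p = 0.0327). Exposed blood array 2 was its high one, and without an array the interaction ran from -2.14 to -1.63. Calu, calumenin, a calcium-binding protein of the secretory path, gave -0.33 log2 in nose and 1.03 in blood (interaction -1.36, adjusted p = 0.0142). Gpx3, the secreted glutathione peroxidase, gave -0.52 log2 in nose and 1.09 in blood (interaction -1.61 ± 0.27, adjusted p = 0.0389). Chrdl1, a secreted antagonist of bone morphogenetic proteins, gave -0.43 log2 in nose and 1.07 in blood (interaction -1.50 ± 0.19, adjusted p = 0.0142).

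Gla, the lysosomal alpha-galactosidase, had 8.76, 8.80 and 8.66 log2 in exposed nose against 9.15, 9.18 and 9.44 in control nose. In blood it had 9.82, 10.22 and 9.76 log2 in exposed rats against 8.64, 9.11 and 8.93 in controls, for an interaction of -1.56 ± 0.21 (adjusted p = 0.0162). Mid1, a microtubule-bound ubiquitin ligase, had 9.01, 9.09 and 8.96 log2 in exposed nose against 9.77, 9.74 and 9.53 in control nose, and its blood values were 7.93, 8.48 and 7.94 log2 in exposed rats against 7.27, 6.94 and 7.21 in controls (interaction -1.64 ± 0.21, adjusted p = 0.0142). No group overlapped in either gene. Of the 29 called genes with a position, 5 lie on chromosome 4, beside 5.98% of the genes tested, 4 on chromosome 13 (3.27%) and 4 on chromosome X (2.69%), and no other chromosome had more than 3; these counts were made after the names were seen.

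The other named genes of the opposite group had interactions between -1.30 and -0.98. The most negative was that of Morc4, with -0.36 log2 in nose and 0.94 in blood (interaction adjusted p = 0.0162). Clec11a, a growth factor of bone and blood progenitors, had 8.65, 8.75 and 8.67 log2 in exposed nose against 9.39, 9.35 and 9.39 in control nose, and 7.19, 7.49 and 7.21 in exposed blood against 7.04, 6.92 and 6.98 in control blood. Its nose difference of -0.69 was larger in size than its blood difference of 0.32, as it was for Mustn1 (-0.65 in nose, 0.50 in blood) and Pdcd10 (-0.54 and 0.44), a protein of endothelial junction signalling. The reverse held for the membrane mucin Muc20 (-0.53 in nose, 0.75 in blood), the focal adhesion protein Tes (-0.48, 0.67), the actin-binding Twf1 (-0.44, 0.82), and Hacd4 (-0.44, 0.75) of fatty acid elongation. It also held for Agpat5 (-0.42, 0.79), an acyltransferase of phospholipid synthesis, Adk (-0.31, 0.84), which removes adenosine, and Mob1b (-0.34, 0.88) of the Hippo pathway.

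**Figure D2:**
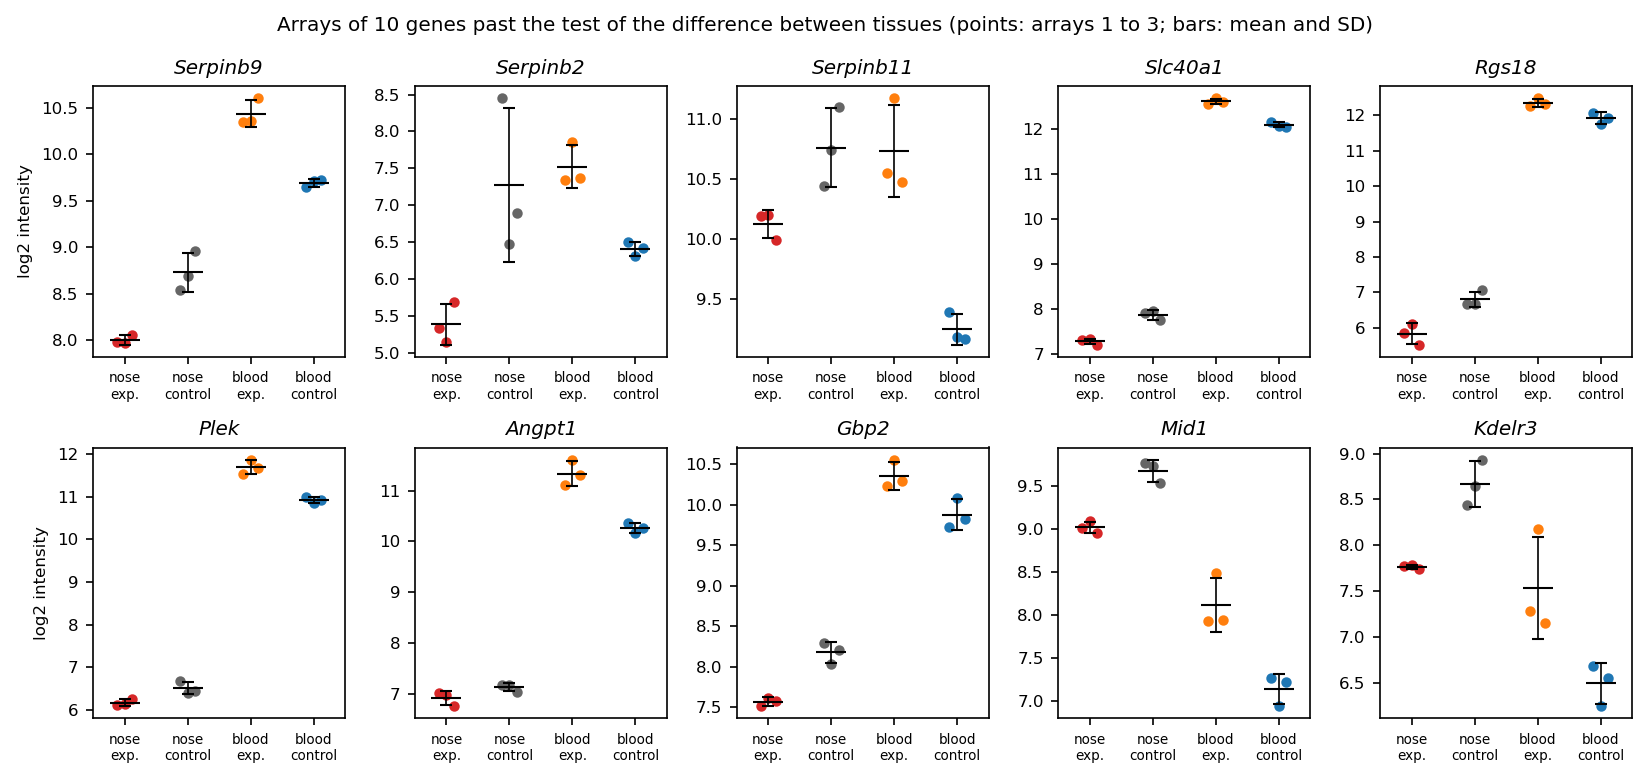
Log2 intensity of 10 genes with a called interaction on each of the 12 arrays, by tissue and exposure; points are arrays 1 to 3 and bars the mean and SD, and each panel has its own axis. The exposed nose points lie below the control nose points, least clearly for Angpt1, and the exposed blood points lie above the control blood points in each panel shown.

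By this rule 9 probe sets moved in blood only, 8 of them higher in exposed rats. Angpt1, a vessel-stabilising ligand of the Tie2 receptor also carried by platelets, had 11.10, 11.60 and 11.30 log2 in exposed blood against 10.36, 10.18 and 10.26 in control blood, a rise of 1.07 (adjusted p = 0.0106). In nose it had 7.02, 6.98 and 6.77 log2 in exposed rats against 7.19, 7.18 and 7.06 in controls, a difference of -0.22 (adjusted p = 0.586). Trpc6, a cation channel of platelets and smooth muscle, rose by 1.22 log2 in blood and gave -0.12 in nose. Il12rb2, the interleukin 12 receptor chain of natural killer (NK) cells and T helper 1 cells, rose by 1.15 log2 in blood and gave -0.20 in nose. Psd3, an exchange factor for ARF6, rose by 1.29 log2 in blood and gave -0.19 in nose (interaction -1.49 ± 0.23, adjusted p = 0.0236). Chml, Tspan12 and Klhl23 rose in blood by 0.97, 0.92 and 0.96 log2, and their nose differences were -0.31, -0.21 and -0.08. All 7 named genes had a nose difference below 0 as well, a sign that a called negative interaction favours. A p over 0.05 in nose does not show that the nose did not change.

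The lowest interaction p of all belonged to an unnamed probe set that fell in blood. It had 6.02, 5.99 and 6.04 log2 in exposed blood against 7.40, 7.40 and 7.65 in control blood, and 6.87, 6.85 and 6.73 in exposed nose against 6.69, 6.67 and 6.75 in control nose (interaction 1.58 ± 0.14, adjusted p = 0.00136). The 1 probe set that moved in nose only was also unnamed. It had 6.53, 6.67 and 6.72 log2 in exposed nose against 7.91, 8.27 and 7.84 in control nose, a fall of 1.36 log2 (adjusted p = 0.00369). In blood it had 6.02, 5.93 and 5.96 log2 in exposed rats against 6.31, 6.28 and 5.96 in controls.

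No named gene passed the test with a positive interaction. Those nearest to it were Ppp1r15a, the stress-induced subunit that lets phosphatase 1 restore translation, at 0.89 ± 0.17 (adjusted p = 0.0661), and Adgrl1, an adhesion G-protein coupled receptor, at 0.79 (adjusted p = 0.0673). Ppp1r15a had 8.28, 8.36 and 8.27 log2 in exposed nose against 8.06, 7.98 and 7.98 in control nose, and 7.92, 7.84 and 7.68 in exposed blood against 8.18, 8.65 and 8.38 in control blood. Its groups were apart in both tissues, and the blood fall of 0.59 log2 passed that tissue's test (adjusted p = 0.0393). Rhob, a small GTPase of endosomes, gave 0.43 log2 in nose and -0.92 in blood (interaction adjusted p = 0.0738). Plxnb2, a semaphorin receptor, and Lrp1, a scavenger receptor of macrophages, fell in blood by 1.28 and 1.37 log2, and their nose differences were 0.28 and 0.03.

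The genes lower in both tissues by the largest margin included genes of myeloid cells. Il1rn, the interleukin 1 receptor antagonist, had 6.51, 6.18 and 6.48 log2 in exposed nose against 7.89, 7.00 and 7.60 in control nose. In blood it had 8.18, 7.51 and 8.01 log2 in exposed rats against 8.36, 9.92 and 8.74 in controls, so control blood array 2 was high. The differences were -1.11 log2 in each tissue, with an adjusted p of 0.27 in nose and 0.152 in blood, and no group overlapped. Without single arrays the interaction of Il1rn ran from -0.46 to 0.32.

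Lyz2, the lysozyme of macrophages and neutrophils, had 9.64, 9.83 and 9.55 log2 in exposed nose against 10.34, 10.06 and 10.59 in control nose, and 12.09, 11.45 and 11.68 in exposed blood against 12.20, 12.77 and 12.26 in control blood. Mpeg1, the macrophage pore protein, gave -0.83 log2 in nose and -0.70 in blood, and Rnase4, a secreted ribonuclease, gave -0.84 and -0.79. C3, the central complement component, fell in blood by 1.08 log2 (adjusted p = 0.0347) and gave -0.57 in nose (adjusted p = 0.354). In the other direction, the glycolytic enzyme Aldoc gave 0.62 log2 in nose and 0.85 in blood, and the Wnt receptor Fzd3 gave 0.59 and 0.78. Dclk2, Tyro3 and Uhmk1 gave 0.50, 0.47 and 0.44 log2 in nose and 0.47, 0.48 and 0.64 in blood. None of these last 5 passed an adjusted test in either tissue.

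The blood calls were read in nose. Of the 216 probe sets that rose in blood, 148 (68.5%) were below 0 in nose, beside 47.8% of all probe sets, and 30 reached an unadjusted p under 0.05 below 0 (13.9%) while 1 did so above 0 (0.463%). Their median nose difference was -0.07 log2. Of the 216, 32 had a called interaction, beside 0.209% of all probe sets. The choice favours such calls, because the interaction contains the same blood difference. Of the 49 that fell in blood, 23 (46.9%) were below 0 in nose, beside 47.8% of all probe sets. Among the 49, 2 had a called interaction, a count favoured in the same way.

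The 38 gene lists were summarised by the median difference of their tested members; over all probe sets the median was 0.01 log2 in nose, -0.02 in blood and 0.03 for the interaction. The NK and cytotoxic list and the platelet list were the lowest for the interaction. All 11 NK and cytotoxic genes had a blood difference above 0, beside 43.6% of all probe sets, and an interaction below 0, beside 44.4%, with medians of -0.07 log2 in nose, 0.52 in blood and -0.59 for the interaction. The interaction contains the same blood difference, so these counts are not separate results. Klrg1, an inhibitory receptor of NK and memory T cells, was the 1 of 11 that passed in blood, beside 1.08% of all probe sets higher there. It had 8.85, 9.19 and 9.40 log2 in exposed blood against 8.06, 8.25 and 8.17 in control blood (adjusted p = 0.0218), and -0.02 log2 as its nose difference. Granzyme B (Gzmb), the T-bet gene Tbx21 and perforin (Prf1) gave 0.81, 0.63 and 0.52 log2 in blood without passing. The mean of the list was 10.38, 10.55 and 10.77 log2 in exposed blood and 9.92, 10.10 and 10.11 in control blood, without overlap. In nose the list's mean was 6.80 to 6.98 log2 in exposed and 6.87 to 7.15 in control rats, near the limit of 6.30. The defining receptors Ncr1 and Klrd1 were under the limit in nose.

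All 12 platelet genes had an interaction below 0 too, and 11 had a blood difference above 0, counts that share the blood difference in the same way. The medians were -0.11 log2 in nose, 0.44 in blood and -0.58 for the interaction. P2ry12, the ADP receptor of platelets, rose by 0.68 log2 in blood, and the chemokine Ppbp, the adhesion receptor gene Gp9 and thrombospondin 1 (Thbs1) gave 0.49, 0.45 and 0.53 without passing. The list's mean was 11.58, 11.86 and 11.57 log2 in exposed blood and 11.34, 11.21 and 11.23 in control blood, also without overlap, with exposed blood array 2 the highest. The summed linear intensity of the 12 genes was 51172 to 60977 in exposed blood and 36383 to 43446 in control blood, and 5337 to 5831 in exposed nose and 5952 to 6272 in control nose. The part of the platelet transcripts in the 40 negative calls was not tested. Without exposed blood array 2 the median interaction of the platelet list was -0.50 and that of the NK list -0.62, and all 12 and all 11 stayed below 0.

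**Figure D3:**
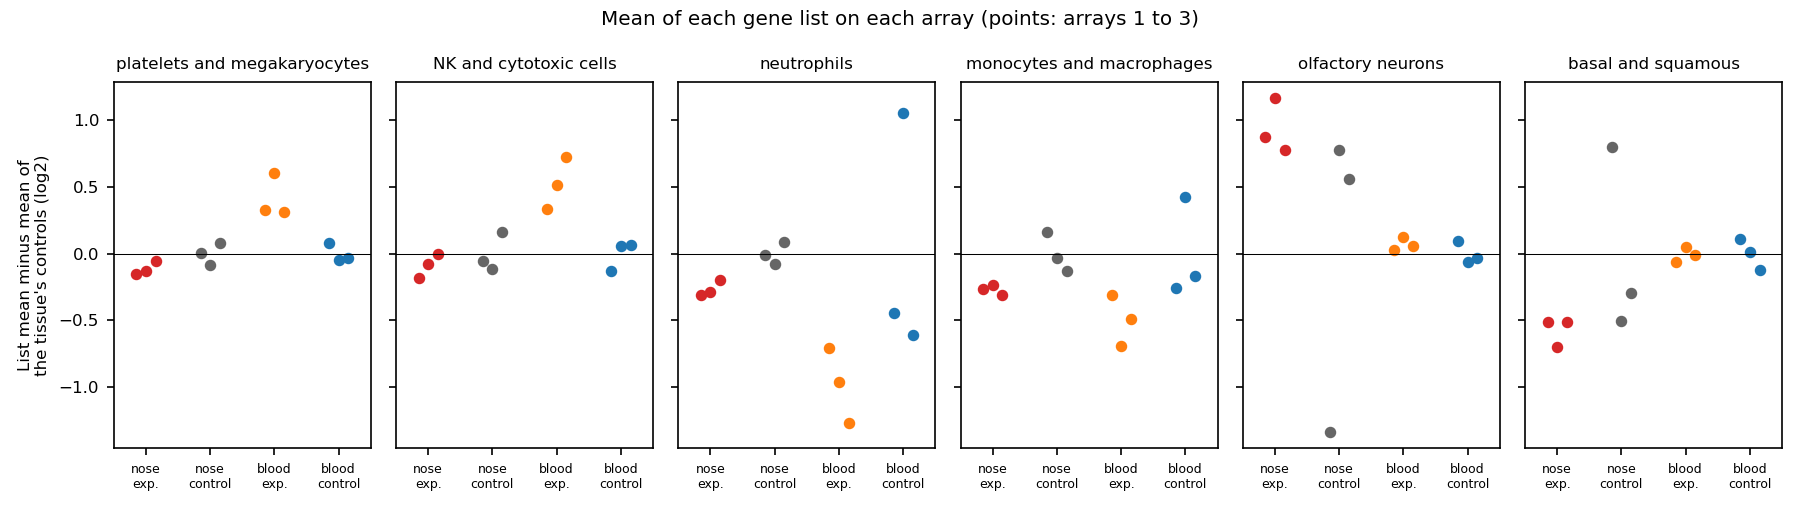
Mean log2 intensity of the tested genes of 6 lists on each array, minus the mean of that tissue's 3 control arrays; points are arrays 1 to 3. The exposed blood points lie above the controls for the platelet and NK lists; 1 control blood array is high for neutrophil genes, and 1 control nose array is low for olfactory and high for basal and squamous genes.

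Neutrophil and monocyte lists had medians below 0 in blood. The 13 neutrophil genes had medians of -0.32 log2 in nose and -0.90 in blood. Cxcr2, the neutrophil's interleukin 8 receptor, had 7.30, 5.65 and 5.47 log2 in exposed blood against 7.83, 11.03 and 7.60 in control blood. Exposed arrays 2 and 3 were under the blood limit of 5.72 log2, so the difference of -2.68 log2 rests in part on dim values. The groups did not overlap, and control array 2 was far above the other controls. Without that array the list's median was -0.37 log2 in blood and 0.05 for the interaction, against 0.51 with it. None of the 13 passed a test in either tissue. At an unadjusted p under 0.05 there were 8 in blood, beside 11.4% of all probe sets, and 0 in nose, beside 10.8%.

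Of 21 monocyte and macrophage genes, 2 fell in blood, beside 0.244% of all probe sets. Without control blood array 2, 0 of the 21 passed in limma and 6 were lower at an unadjusted p under 0.05. Most blood calls were lost in that fit, with 18 over all probe sets against 265, so the loss is not particular to this list. Cd68, a lysosomal glycoprotein of macrophages, had 8.39, 7.59 and 7.86 log2 in exposed blood against 8.79, 9.42 and 9.18 in control blood, a fall of 1.19 (adjusted p = 0.0266). Fibronectin, Fn1, had 9.84, 8.44 and 7.43 log2 in exposed blood against 10.35, 11.89 and 10.56 in control blood, a fall of 2.36 (adjusted p = 0.0405), while its nose difference was 0.08. The list's medians were -0.29 log2 in nose, -0.42 in blood and 0.12 for the interaction, and the interaction was -0.03 without control blood array 2. RT1-DMa, which loads peptides on class II molecules, fell by 0.83 log2 in blood. It was the 1 of 13 class II genes to pass the adjusted test as lower, beside 0.244% of all probe sets. The list's blood median was -0.33 log2, and 1 of the 13 lay above 0, beside 43.6% of all probe sets. At an unadjusted p under 0.05 there were 8 in blood, beside 11.4%.

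The immediate early list, genes switched on within minutes by many signals, had a lower median in blood than in nose. Of 28 genes, 4 fell in blood, beside 0.244% of all probe sets (Ppp1r15a, Ier5, Klf2 and Klf4, by 0.59, 0.49, 0.62 and 0.87 log2), and the medians were 0.03 log2 in nose, -0.34 in blood and 0.33 for the interaction. The list's mean was 7.78, 7.81 and 7.68 log2 in exposed blood against 7.97, 8.59 and 8.00 in control blood, so control array 2 was the high one. Without it 0 of the 28 passed in limma and 7 were lower at an unadjusted p under 0.05. Over all probe sets 18 passed in blood without that array, against 265 with it. The list's medians without it were -0.16 log2 in blood and 0.07 for the interaction. The phosphatase gene Dusp1 and the nuclear receptor Nr4a1 gave -1.42 and -1.10 log2 in blood and 0.12 and 0.66 in nose, without passing. Of 21 glucocorticoid response genes, 19 had an interaction above 0, beside 55.6% of all probe sets, with medians of 0.11 log2 in nose and -0.15 in blood. Some of these, such as Dusp1, are on both lists, and the median interaction of 0.41 was 0.11 without control blood array 2, where 15 of 21 were above 0. Per1, both a clock gene and a glucocorticoid target, had 8.52, 8.81 and 9.12 log2 in exposed nose against 8.71, 8.36 and 7.95 in control nose, where the groups overlap, and 8.42, 8.64 and 8.46 in exposed blood against 8.91, 9.39 and 8.88 in control blood. None of these interactions passed.

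Among 16 clock genes, 9 reached an unadjusted p under 0.05 in nose, beside 10.8% of all probe sets, and 2 did in blood, beside 11.4%, and none passed an adjusted test. The activators Arntl and Npas2 gave -0.75 and -0.69 log2 in nose and -0.02 and 0.07 in blood. The repressors Per2 and Per3 and the clock-driven factor Tef gave 0.55, 0.49 and 0.54 log2 in nose and -0.14, 0.02 and 0.05 in blood.

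The olfactory and the squamous epithelial lists had medians near 0 in blood, and their nose medians were smaller without control nose array 1. The olfactory neuron list had medians of 0.94 log2 in nose and 0.05 in blood, and the nose median was 0.36 without that array. The basal and squamous list had medians of -0.47 log2 in nose and -0.01 in blood, and the nose median was -0.11 without it. Sprr3, a cornified envelope protein, had 6.55, 6.47 and 6.59 log2 in exposed nose against 9.82, 6.98 and 8.31 in control nose. Its groups did not overlap, and its interaction of -1.91 had an adjusted p of 0.261. Without control nose array 1 the interaction was -1.18 (adjusted p = 0.129), and without control nose array 2 it was -2.60 (adjusted p = 0.0309).

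The lists closest to the chemistry of formaldehyde were read beside the shares passing over all probe sets. These were 0.209% for the interaction, 0.00499% in nose and 1.32% in blood, so 0 calls in a short list says little about its genes. None of 20 aldehyde and formaldehyde metabolism genes passed a test; the widest interaction was that of mitochondrial Aldh2, with 10.80, 10.53 and 10.56 log2 in exposed nose against 10.71, 10.16 and 8.80 in control nose, and 9.24, 8.83 and 8.61 in exposed blood against 9.47, 9.27 and 9.67 in control blood (interaction 1.32 ± 0.50, adjusted p = 0.285). Control nose array 3 was its low one, and without that array the interaction was 0.77. Esd, which hydrolyses the glutathione conjugate of formaldehyde, gave 0.00 log2 in nose and 0.02 in blood. Of 25 NRF2 targets, the antioxidant response genes, 3 rose in blood, beside 1.08% of all probe sets: Gsta1 by 1.08, Ephx1 by 1.03 and the NADPH-producing Me1 by 0.91 log2, with nose differences of -0.11, 0.14 and -0.24. Without control blood array 2, 0 of the 25 passed in limma and 7 were higher at an unadjusted p under 0.05, in a fit where 18 of all probe sets passed in blood. The median of that list was -0.04 log2 in nose and -0.03 in blood. None of 11 DNA crosslink and excision repair genes and none of 19 p53 targets passed in nose, in blood or for the interaction. These counts too are near the shares over all probe sets.

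**Figure D4:**
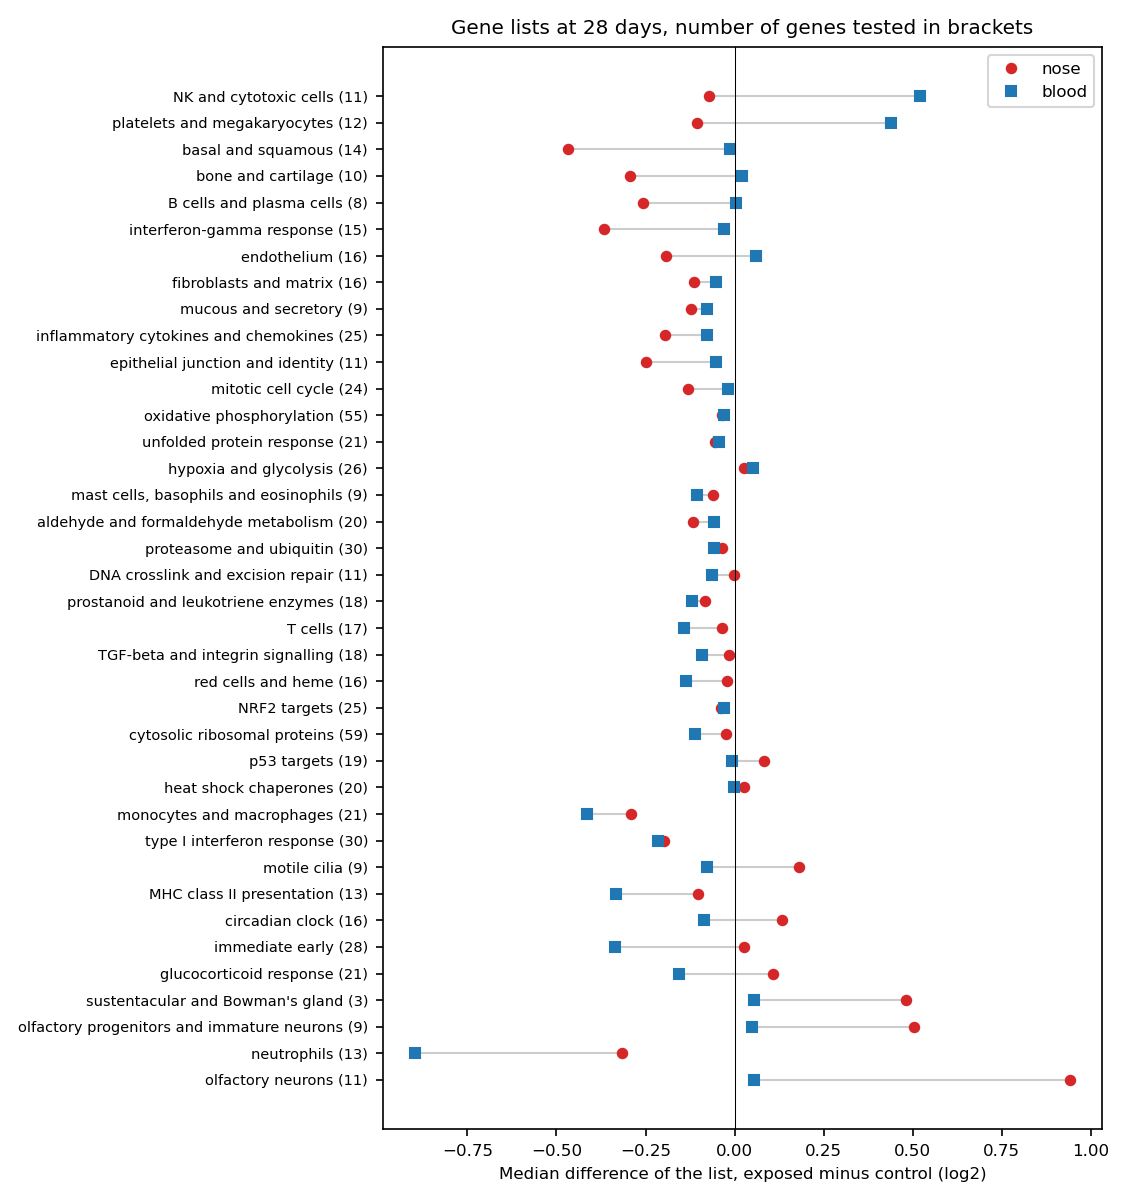
Median exposed minus control difference (log2) of each of 38 gene lists in nose (red circles) and blood (blue squares), ordered by the median interaction, most negative at the top. The NK and platelet lists sit to the right in blood and near 0 in nose; the olfactory neuron list sits to the right in nose and the neutrophil list to the left in blood.

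Genes expressed in only 1 of the tissues could not enter the interaction as a comparison of 2 measured values, so the 1860 probe sets above the limit in nose alone and the 1860 above it in blood alone were read in the tissue that had them, from a fit that added them. In nose 2 of the 1860 passed, out of 3 over all probe sets of that fit, which also held the 20050 of the main test. Of the 2, 1 was named: Clca1, a goblet cell metalloprotease linked to mucus, which had 5.74, 5.71 and 6.38 log2 in exposed nose, against 11.10, 9.998 and 8.39 in control nose. Exposed arrays 1 and 2 were under the nose limit, and with them set at it Clca1 was at least 11.3-fold lower in exposed nose; the fitted difference was -3.89 ± 0.48 log2 (adjusted p = 0.0375). Without control nose array 1 the difference was -3.25 (adjusted p = 0.00556). Without exposed nose array 1, 2 or 3 the adjusted p was 0.185, 0.12 or 0.0775. In blood 35 of the 1860 passed, out of 238 over all probe sets of that fit. The interaction in that fit was called for 3 of the 1860 of blood and 0 of the 1860 of nose, with the other tissue under its limit. The 35 included the NK cell receptors Kir3dl1 and Klre1, which rose by 1.66 and 0.94 log2, granzyme K (Gzmk), which rose by 0.91, and the relaxin receptor Rxfp1, which rose by 1.26. Kir3dl1 had 7.32, 7.65 and 8.03 log2 in exposed blood against 5.40, 6.50 and 6.12 in control blood. The exposed and control groups did not overlap for any of these 4 genes or for Clca1 in nose, a property that a passed test favours. In the main test 18% of all probe sets had groups apart in blood and 16.3% in nose. These names were picked with their values in view.

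The 12 arrays of 7 days, which had no part in choosing the 42, gave a separate reading of the same contrast. Of the 40 negative calls, 37 (92.5%) had a negative interaction at 7 days, beside 64% of all probe sets, and 23 of the 40 passed an adjusted p of 0.05 there below 0, beside 17.7% of all probe sets, while 1 passed above 0. At 7 days 5536 probe sets passed in either direction, 27.6% of those tested. The median of the 40 at 7 days was -0.44 for the interaction, -0.31 log2 in nose and 0.12 in blood, so the blood part was smaller than the 0.86 log2 of 28 days; the change between days was not tested. Blood differences were above 0 in 34 of the 40 at 7 days, beside 62% of all. Psd3, Morc4 and Klhl23 were the 3 with a positive value, at 0.60, 0.04 and 0.05. Psd3 was the 1 that passed above 0 at 7 days (limma adjusted p = 0.0178). Its 7 day differences were 0.31 log2 in nose and -0.29 in blood, both opposite in sign to those of 28 days.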

How the data were processed

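Total RNA from nasal epithelium and white blood cells was labelled with biotin and hybridised to Affymetrix arrays, per the labels' protocols. The authors deposited 1 normalised intensity per probe set and array, on a linear scale, in 1 table of 24 arrays; per the submitters' processing notes they used Partek. No source used here gives its version or how background was treated, probes were combined and arrays were normalised, or whether both tissues were normalised together, so levels were not tested between nose and blood; only marker genes of each tissue are given side by side, as a description. The labels give no scan date or slide. The number of arrays limits the precision.

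The deposited intensities were log2 transformed without further scaling. Probe sets at or above the 25th percentile of mean log2 intensity in both tissues were tested (20050 of 29214). Of all probe sets, 15310 had 1 gene symbol, 323 several and 13581 none; symbols were updated through gene identifiers, of which 15279 matched the reference. A list gene with several probe sets was read from the one with the highest mean. One limma fit (limma 3.58.1, R 4.3.3) over the 12 arrays of 28 days had 4 group means and no covariate, with contrasts for nose, blood and their difference and Benjamini-Hochberg adjustment over all probe sets tested, and every adjusted p comes from limma unless another fit is named. Named genes were those with 1 symbol and the 10 most negative called interactions, the 10 positive ones with the smallest p and at least 1.5-fold, the 5 with the largest smaller-of-both difference in each sign pattern, and up to 4 per list by interaction p; exceptions are stated. Where a group's mean lay under the limit, its arrays under it were set to it for a bound, a step added after the data were seen. The genes and lists were chosen with earlier results of these data known. The fit was tested on simulated data.

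Arrays with the same number were checked for pairing by correlating their deviations from group means. Exposed and control nose arrays gave 0.23, 0.26 and 0.17, all over 0.1, and exposed and control blood arrays gave -0.36, -0.21 and 0.06. Nose and blood arrays of the same number gave 0.19, -0.07 and -0.10 in exposed rats and -0.19, -0.05 and -0.20 in controls. Alternatives covered the filter, scaling, prior, weights, block, arrays used, threshold and leaving out each array. Figures were drawn with matplotlib 3.10.9.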

Additional observations from a re-analysis of the deposited data

Results flagged for a closer look

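The exposure difference in nose differed from that in blood by the interaction test of limma (adjusted p under 0.05) for 33 probe sets with 1 gene symbol. Of these, 11 met the rule for named genes given above and are listed here. Ordered by p, the interactions were -1.47 for Serpinb9, -2.11 for Serpinb11, -1.50 for Chrdl1, -1.64 for Mid1, -1.56 for Gla, -1.77 for Serpini1, -1.49 for Psd3, -1.09 for Gbp2, -1.95 for Kdelr3, -1.61 for Gpx3 and -3.0 for Serpinb2. Their adjusted p-values ran from 0.0105 for Serpinb9 to 0.0452 for Serpinb2. The exposed nose arrays of Serpinb2 were all under the nose limit, and with them set at it the interaction was -2.08. Groups of 3 arrays are too small for a test of outlying samples.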

How the results depend on the processing

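The interaction called 42 probe sets. It called 58 with median centring, 1597 with array quality weights and 1016 with all 24 arrays. At an adjusted p under 0.1 it called 155, and at an unadjusted p under 0.005 with a 1.5-fold difference 517. It called 0 with a replicate block of tissue by number or of exposure by number. At an unadjusted p under 0.05 all 42 passed under both blocks. Other filters, priors and quantile normalizations gave 31 to 38. Without 1 array it called 1 to 192. The array weights stopped before they converged. The nose count of 1 became 2 with no filter, 3 with the filter in either tissue, 0 at percentile 50, 25 with quantile normalization over 12 arrays, 3876 with array weights, 0 with the replicate block, 371 with all 24 arrays, 10 at an adjusted p under 0.1, 217 at the p and fold threshold, 0 with the tissue alone, and 0 to 263 without 1 array. The blood count of 265 became 175 with no filter, 18 with quantile normalization over 12 arrays, 524 with array weights, 15 with the replicate block, 1142 with all 24 arrays, 564 at an adjusted p under 0.1, 493 at the p and fold threshold, 1 with the tissue alone, and 1 to 530 without 1 array. The cause of these shifts was not tested, except that blocks and single tissues leave fewer residual degrees of freedom. With a p of 0.01 per tissue there were 18 opposite, 21 blood only, 3 nose only and 9 same-direction probe sets; blood only became 3 at percentile 50 and 5 with quantile normalization within tissue, and nose only 0 and 2. Without 1 array these classes ran over 0 to 117, 1 to 41, 0 to 49 and 37 to 140. The number of lists with a median interaction below 0 was 16 and ran from 13 to 24 without 1 array, an alternative chosen after seeing the data, as were those of Clca1.

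Sign changes of the interaction affected genes without a called interaction: Tyro3 at 0.058 with quantile normalization over 12 arrays, Lyz2 at -0.0017 with median centring, and Cyp2g1 at -0.088, Dclk2 at -0.092 and Il1rn at 0.25 with array weights. Without 1 array the ranges were -0.26 to 0.057 for Aqp5, -0.21 to 1.43 for Cyp2g1, -0.14 to 0.18 for Dclk2, -0.41 to 0.042 for Fzd3, -0.46 to 0.32 for Il1rn, -0.16 to 0.20 for Lyz2, -0.42 to 0.042 for Mpeg1, -0.58 to 0.26 for Rnase4 and -0.16 to 0.19 for Tyro3. Of 4208 values of 178 genes under alternatives, 38 changed sign, and none belonged to a gene with a called interaction. Each group has 3 arrays. Probe sets under the intensity limit in 1 tissue were left out of the main test of the interaction. They entered only the fits with no filter or with the filter in either tissue.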
